A study of Miniopterus schreibersii with 14 samples.

Results

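Among 64618 assembled transcript components of the embryonic bent-wing bat (Miniopterus schreibersii), 3 components, comp1181_c0, comp1220_c0 and comp3957_c0, were chosen by their scores in a single pair of libraries: high in forelimb digits II-V and scarce in forelimb digit I. All 3 were already present in the limb buds before the digits had formed. In digits II-V, whose high score was part of the choice, and in their interdigital tissue, each scored inside the range of the forelimb buds. The range was wide for comp1181_c0, at 286 to 1956, and for comp1220_c0, at 520 to 4664, with the anterior bud lowest. The interdigital tissue scored below the middle and posterior forelimb buds for all 3. Between the hindlimb buds and the foot comp3957_c0 fell by 3.01 in log2 units (SE 0.49, limma adjusted p = 0.013). Its foot scores lay near those of the thumb side. Different parts stood in for replicates in that comparison, and the call was lost under 4 of 9 alternative settings. The foot scores of comp1181_c0 and comp1220_c0 were 42.3% to 65.8% of their hindlimb bud mean and were not called, and the difference between the components was not tested.

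The autopod is the distal limb segment that forms the hand or foot, and RNA was sequenced from 14 dissected pieces of it, each as 1 library. At stage S14 the forelimb bud and the hindlimb bud were each cut into an anterior, a middle and a posterior part. At S15-17 the forelimb gave digit I, digits II-V and 2 pieces of interdigital tissue, one joining digits I and II and the other digits II to V, and the hindlimb gave digits I-V and their interdigital tissue. At the fetal stage the metacarpals of digits II-V and the metatarsals of digits I-V were taken. No genotype, treatment or embryo number is given by the labels, and the sources used here do not state whether embryos were pooled. The foot library of S15-17 includes digit I of the foot, so it has no counterpart of the contrast between digit I and digits II-V.

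Limb buds are patterned along an axis from anterior, the thumb side, to posterior, the side of the little finger, where a signalling centre secretes Sonic hedgehog. Digit I arises at the anterior margin. In bats, forelimb digits II-V lengthen greatly and the tissue between them is retained as wing membrane, while digit I and the toes stay short and free. The table names components by assembly number and does not pair them with genes, and 0 of the 64618 identifiers matched a RefSeq table of 22775 genes of this species (assembly mMinSch1.hap1.2). The function and the sequence of the 3 components are therefore not given, and their levels are compared between libraries and never with each other.

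The values that chose the 3 components were the scores in digits II-V and digit I, which are normalized read counts rounded to whole numbers. Component comp1181_c0 scored 1030 in digits II-V and 19 in digit I, comp1220_c0 scored 1978 and 107, and comp3957_c0 scored 456 and 28. These are ratios of (score + 1) of 51.55, 18.32 and 15.76. The ratios are a description and were not tested, since they made the choice. Over the 20429 components whose mean score reached 10, the median difference between the same libraries was 0.01 on the log2(score + 1) scale. The digit I library was the shallowest, at 4550754 reads, and its scores for comp1181_c0, comp1220_c0 and comp3957_c0 stood for 9, 50 and 13 reads.

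The 3 ranked at the top only among components that were well measured in these libraries. With a mean score over digits II-V and digit I of at least 100, a reading fixed after the data were seen, they were the leading 3 of 10394, and the next, comp12100_c0 and comp1674_c0, had ratios of 6.65 and 6.41. With a minimum digits II-V score of 100 in place of that mean, comp12631_c0 (117 against 2) and comp13440_c0 (103 against 2) came between comp1181_c0 and comp1220_c0, with 1 read each in digit I. Just outside comp3957_c0, at 15.42 and 15.29, followed comp7027_c0 (184 against 11) and comp14355_c0 (106 against 6). That order turns with the added 1: the plain score ratio was 16.7 for comp7027_c0 and 17.7 for comp14355_c0, both above comp3957_c0 at 16.3. By the plain ratio comp12631_c0, at 58.5, also passed comp1181_c0, at 54.2. With the mean over all libraries as the criterion, comp1220_c0 ranked 20 and comp3957_c0 ranked 35. Among those ahead were components low in digits II-V but not in every library, such as comp5189_c0, at 40 there and 2226 in metatarsals. In any bud, comp12631_c0 and comp13440_c0 scored at most 53 and 34, against 415 and 265 in metatarsals. The bud levels given below thus describe the 3 chosen, under a reading fixed after the data were seen.

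**Figure D1:**
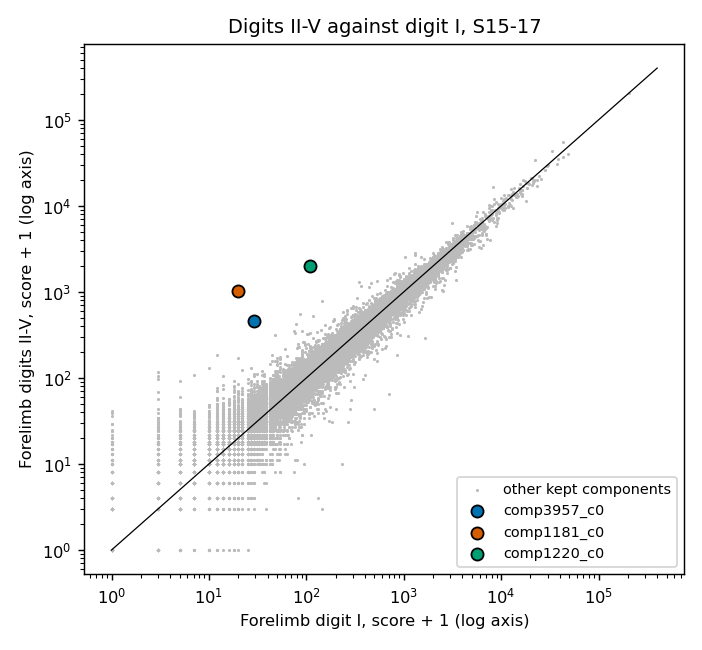
Scores + 1 of 20429 components in forelimb digits II-V (vertical, log axis) against forelimb digit I (horizontal, log axis), 1 point per component, with the line of equal scores. The 3 components, at 1030 against 19, 1978 against 107 and 456 against 28, lie above the cloud of components with like digit I scores.

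Component comp1181_c0 was highest in the middle and posterior forelimb buds. Its scores in the forelimb buds were 286 in the anterior, 1871 in the middle and 1956 in the posterior part. The hindlimb buds gave 265, 864 and 549 in the same order. At S15-17 it scored 1030 in digits II-V and 1112 in the interdigital tissue between them, 368 in hindlimb digits and 335 in hindlimb interdigital tissue. On the thumb side digit I had 19 and interdigital tissue I-II had 251, and the fetal libraries had 173 in metacarpals and 34 in metatarsals. Digit I was thus the lowest of the 14 libraries, and the 2 wing libraries of S15-17 stood above every other library except the middle and posterior forelimb buds.

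Component comp1220_c0 followed nearly the same course. It scored 520, 4664 and 3908 in the anterior, middle and posterior forelimb bud and 671, 2091 and 1419 in the hindlimb bud. Digits II-V had 1978 and their interdigital tissue 2291, against 754 and 589 in the foot. Digit I had 107, and the tissue beside it, with 618, lay close to the foot. Metacarpals scored 320 and metatarsals 95, the lowest of the 14.

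Component comp3957_c0 had a sharper division. The forelimb buds scored 210, 537 and 450 from anterior to posterior, and the hindlimb buds 96, 298 and 226. In the S15-17 wing it scored 456 in digits and 375 in interdigital tissue. The other 4 libraries of that period were all low, with 28 in digit I, 16 in interdigital tissue I-II, 26 in hindlimb digits and 19 in hindlimb interdigital tissue. Metacarpals had 129 and metatarsals 10. Its libraries therefore formed an upper set from 96 to 537, made of all buds, the wing and the metacarpals, and a lower set from 10 to 28.

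**Figure D2:**
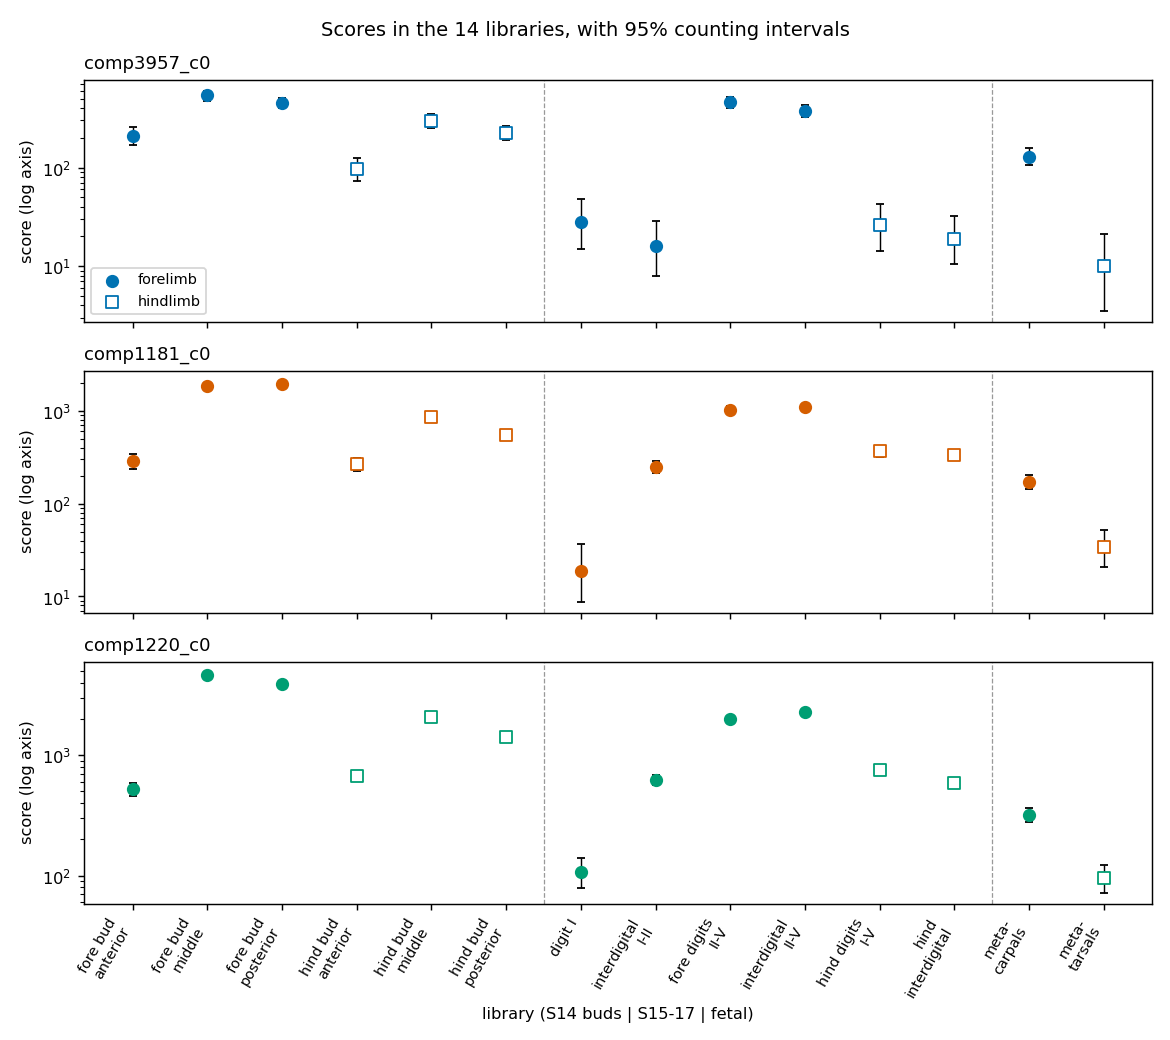
Scores (log axis) of comp3957_c0, comp1181_c0 and comp1220_c0 in the 14 libraries, filled circles for forelimb and open squares for hindlimb, with exact 95% intervals that cover counting error only. For comp3957_c0 the thumb side and the foot both lie between 10 and 28 after S14, while for comp1181_c0 and comp1220_c0 digit I, at 19 and 107, lies below the hindlimb digits, at 368 and 754.

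Counting error alone leaves part of these orders unsettled. Between libraries next to each other in level, the exact 95% interval of the score ratio included 1 in 8 of 13 cases for comp3957_c0, in 7 of 13 for comp1181_c0 and in 6 of 13 for comp1220_c0. For comp3957_c0 this held for every step among digit I, hindlimb digits, hindlimb interdigital tissue, interdigital tissue I-II and metatarsals, which rest on 6 to 15 reads each. Digit I and metatarsals were not parted for comp1181_c0 (ratio of metatarsals to digit I 1.76, interval 0.77 to 4.36) nor for comp1220_c0 (ratio of digit I to metatarsals 1.13, interval 0.76 to 1.67). Since each part had 1 library, the spread between repeat libraries of a part was not measured.

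Tests were made with limma on log2(score + 1), over all 20429 components with Benjamini-Hochberg adjustment, and left out the digits II-V and digit I libraries. In the wing interdigital tissue all 3 components lay inside the range of the forelimb buds. It scored 375 for comp3957_c0, against a bud mean of 399 ± 169 (SD, n = 3), 1112 for comp1181_c0 against 1371 ± 941, and 2291 for comp1220_c0 against 3031 ± 2207 (SD, n = 3 each). In each case it lay below the mean of the bud scores. The fit compares means of log2(score + 1), in which the low anterior bud weighs more. On that scale the wing tissue stood at 8.55, 10.12 and 11.16 against bud means of 8.54, 9.99 and 11.05, differences of 0.02, 0.13 and 0.11 with the opposite sign (adjusted p = 0.99, 0.95 and 0.96). None of the 3 was called at an adjusted p under 0.05. Over all components 12.7% were called in this comparison, in either direction.

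These differences were measured loosely, because 1 library stood against 3 buds that themselves differed widely. The 95% interval of limma, not adjusted for the number of components, ran from -1.74 to 1.78 for comp3957_c0, from -2.68 to 2.94 for comp1181_c0 and from -2.92 to 3.15 for comp1220_c0. The sign of the difference rested on the anterior bud: without it the values were -0.39, -0.78 and -0.90, none of them called. Compared with the middle forelimb bud, which scored 1.43 times (interval 1.20 to 1.71), 1.68 times (1.53 to 1.86) and 2.04 times (1.91 to 2.18) as high, the wing interdigital tissue was lower for comp3957_c0, comp1181_c0 and comp1220_c0. Digits II-V, which were chosen for high scores and thus not tested, stood at 114%, 75.1% and 65.3% of the bud mean for the same components.

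On the thumb side the buds' levels were not kept in digit I by any of the 3, where the low score was part of the choice. The adjacent interdigital tissue I-II was not. There comp3957_c0 scored 16, or 4.01% of the forelimb bud mean, below every forelimb bud, and it fell by 4.45 in log2 units (SE 0.73, adjusted p = 0.023). Component comp1181_c0 scored 251, just under the anterior forelimb bud at 286, and comp1220_c0 scored 618, above that bud at 520. Their differences from the bud mean of log2(score + 1) were -2.01 (SE 1.17, adjusted p = 0.28) and -1.77 (SE 1.26, adjusted p = 0.37). So 1 of the 3 was called lower, where 7.97% of all components were. This tissue is 1 library, which the fit assumes to vary like the bud libraries, and its own spread was not measured. The call for comp3957_c0 was lost in limma without the posterior forelimb bud (adjusted p = 0.062), without the posterior hindlimb bud (0.058) and with no filter on low scores (0.052), with values from -4.31 to -4.45.

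The scores beside digit I can also be set against digit I itself. For comp1181_c0 the tissue next to digit I scored 13.1 times as high as digit I (exact counting interval 6.73 to 29.1), and for comp1220_c0 5.79 times as high (4.31 to 7.92). For comp3957_c0 it scored 0.57 times as high, with an interval from 0.23 to 1.38 that includes equality. Digit I is the library that chose the components, so these ratios are given as a description, and the difference between the components was not tested.

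In the hindlimb, the S15-17 foot was compared with the S14 buds. The hindlimb buds averaged 207 ± 102 for comp3957_c0 (SD, n = 3), and hindlimb digits and interdigital tissue had 26 and 19, both below the lowest bud at 96. Its change from S14 to S15-17 in the hindlimb was -3.01 on the log2 scale (SE 0.49, adjusted p = 0.013). Component comp1181_c0 averaged 559 ± 300 in the hindlimb buds (SD, n = 3), and its foot scores of 368 and 335 stayed inside the bud range, with a change of -0.51 (SE 0.46, adjusted p = 0.46). Component comp1220_c0 averaged 1394 ± 710 (SD, n = 3), with 754 inside the range and 589 below the lowest bud at 671, and a change of -0.92 (SE 0.45, adjusted p = 0.20). Of the 3, 1 was called lower, against 11.7% of all components, and stage and kind of dissected part cannot be told apart.

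The 95% interval of the hindlimb change ran from -4.21 to -1.81 for comp3957_c0, from -1.63 to 0.61 for comp1181_c0 and from -2.02 to 0.19 for comp1220_c0, not adjusted for the number of components. A 2-fold fall is therefore inside the interval for comp1181_c0 and comp1220_c0 too. The difference between the components' changes was not tested. The call for comp3957_c0 was lost in limma with no filter (adjusted p = 0.075) and on leaving out the posterior hindlimb bud (0.056), the hindlimb digits (0.076) or the hindlimb interdigital tissue (0.11), and comp1220_c0 was called without the anterior hindlimb bud (-1.37, adjusted p = 0.044). In such pieces of tissue, fewer cells that hold a transcript and less of it per cell cannot be told apart.

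**Figure D3:**
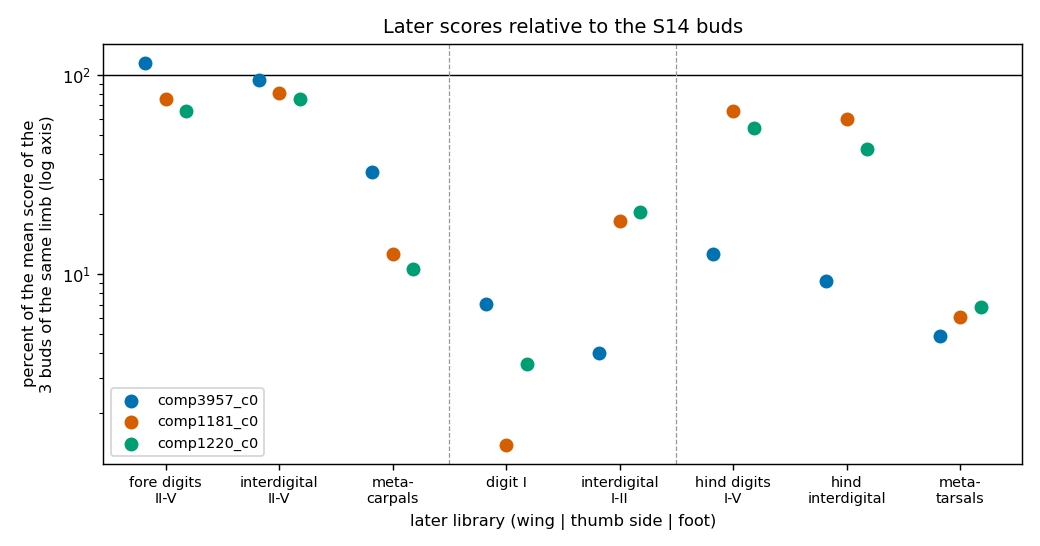
Scores of the 8 later libraries as a percent (log axis) of the mean over the 3 S14 buds of the same limb, for the 3 components, with the line at 100%. In the S15-17 wing all lie from 65.3% to 114%, on the thumb side from 1.39% to 20.4%, and in the S15-17 foot comp3957_c0, at 12.6% and 9.19%, lies below comp1181_c0 and comp1220_c0, at 42.3% to 65.8%.

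The interdigital tissue of the wing scored higher than both other kinds of interdigital tissue for all 3 components. It had 23.6 times the score of interdigital tissue I-II for comp3957_c0 (exact counting interval 12.9 to 47.9), 4.42 times for comp1181_c0 (3.74 to 5.25) and 3.71 times for comp1220_c0 (3.32 to 4.14). Against hindlimb interdigital tissue the ratios were 19.7 (11.5 to 36.6), 3.32 (2.86 to 3.86) and 3.89 (3.49 to 4.34). Digits II-V over interdigital tissue of the wing came to 1.22 (1.01 to 1.46), 0.93 (0.83 to 1.04) and 0.86 (0.80 to 0.93) times, a description, since the high digits II-V score was part of the choice.

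These ratios compare 1 library with 1 and cover counting error only. When the spread among the bud libraries was taken as the error of each, the log2 difference between wing interdigital tissue and interdigital tissue I-II was 4.47 for comp3957_c0 (SE 0.89, adjusted p = 0.42), 2.14 for comp1181_c0 (SE 1.43, adjusted p = 1) and 1.89 for comp1220_c0 (SE 1.54, adjusted p = 1) in limma. None of the 3 was called, and 0.0147% of all components were called higher. The differences of the 3 components lay at the 99.99th, 99.6th and 99.3rd percentile of all components. These tissues adjoin the digits that chose the components, so the percentiles are a description and cannot count as independent of the choice.

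Forelimb and hindlimb were compared over matched parts, without the digits pair. The match is by kind of part: after S14 the forelimb parts belong to digits II-V and the foot parts to digits I-V. In the S14 buds the forelimb minus hindlimb difference was 0.99 ± 0.14 for comp3957_c0, 1.02 ± 0.86 for comp1181_c0 and 0.75 ± 0.98 for comp1220_c0 on the log2 scale (SD, n = 3 pairs). For comp3957_c0 the difference was alike in the anterior, middle and posterior pair, at 1.12, 0.85 and 0.99. For comp1181_c0 it was 0.11, 1.11 and 1.83 along the same order, and for comp1220_c0 it was -0.37, 1.16 and 1.46, so that the anterior pair went the other way. In limma none of the 3 was called (adjusted p = 0.24, 0.44 and 0.58), where 0.0147% of all components were called higher.

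Later, in the interdigital and metapodial pairs, the difference was 3.90 ± 0.47 for comp3957_c0, 2.02 ± 0.41 for comp1181_c0 and 1.85 ± 0.15 for comp1220_c0 (SD, n = 2 pairs). Component comp3957_c0 was called (SE 0.26, adjusted p = 0.00091), while comp1181_c0 (SE 0.35, adjusted p = 0.16) and comp1220_c0 (SE 0.36, adjusted p = 0.23) were not. These SEs assume that the later pairs vary like the S14 pairs. The SD of the S14 pairs was smaller for comp3957_c0, at 0.14, and larger for comp1181_c0 and comp1220_c0, at 0.86 and 0.98. That is 1 of 3, where 0.0343% of all components were called higher. With limma voom on reads recovered from the scores all 3 were called, comp1181_c0 at 1.88 (adjusted p = 0.032) and comp1220_c0 at 1.89 (adjusted p = 0.033), among 0.822% of components called higher. Without the anterior pair limma also called comp1220_c0 (1.85, adjusted p = 0.032). The call for comp3957_c0 was lost in limma without the metapodial pair (4.23, adjusted p = 0.26), with no filter (adjusted p = 0.075) and without the matched part as a block (adjusted p = 0.96).

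The change in limb difference from S14 to the later pairs was 2.91 for comp3957_c0 (SE 0.34, adjusted p = 0.067), 1.0 for comp1181_c0 (SE 0.46, adjusted p = 0.44) and 1.10 for comp1220_c0 (SE 0.47, adjusted p = 0.42). None passed the threshold without the digits pair, and 0.00979% of all components were called higher. For comp3957_c0 the wing interdigital tissue was at 94% of its bud mean and the foot interdigital tissue at 9.19%. The middle forelimb bud alone scored 1.43 times the wing tissue (exact counting interval 1.20 to 1.71). In the fetal pair, metacarpals were at 32.3% and metatarsals at 4.84% of their bud means. Whether the limb difference changed through the wing or the foot was not tested. The later pairs set digits II-V of the forelimb against digits I-V of the foot, and what this adds to the change was not tested.

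**Figure D4:**
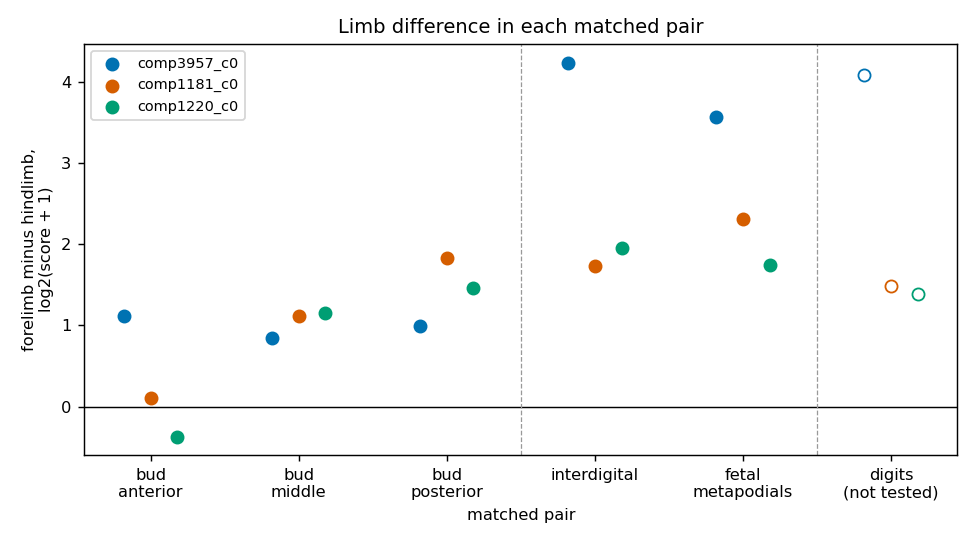
Forelimb minus hindlimb difference in log2(score + 1) for the 3 components in each matched pair, with the digits pair as open circles because digits II-V chose the components. For comp3957_c0 the bud pairs lie between 0.85 and 1.12 and the later pairs at 4.23 and 3.56, and for comp1220_c0 the anterior bud pair lies below 0, at -0.37.

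In the fetal bones the 3 components scored lower than in the buds, in both limbs. Metacarpals scored 173 for comp1181_c0, 320 for comp1220_c0 and 129 for comp3957_c0, or 12.6%, 10.6% and 32.3% of the forelimb bud mean. Metatarsals scored 34, 95 and 10, or 6.08%, 6.82% and 4.84% of the hindlimb bud mean. All 6 values lay below every bud of the same limb. The wing bones scored higher than the foot bones, by 5.11 times for comp1181_c0 (exact counting interval 3.21 to 8.53), 3.37 times for comp1220_c0 (2.53 to 4.55) and 13.4 times for comp3957_c0 (5.93 to 37.3). Metapodials are dissected bones while the S15-17 parts are whole digits or soft tissue, so age and tissue cannot be told apart here.

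At S14 the buds already differed by position. For all 3 components the anterior part was the lowest of its bud, in both limbs. In the forelimb the middle and posterior parts scored 6.55 times (exact counting interval 5.44 to 7.93) and 6.85 times (5.70 to 8.28) the anterior part for comp1181_c0, and 8.97 times (7.84 to 10.3) and 7.52 times (6.57 to 8.63) for comp1220_c0. For comp3957_c0 the same ratios were 2.56 (2.02 to 3.27) and 2.14 (1.69 to 2.74). In the hindlimb the ratios ran from 2.07 to 3.26 over the 3 components.

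Both other parts scored more than 2-fold above the anterior part, in both limbs, for 3 of the 3 components and for 0.377% of all components (77 of 20429). This criterion was set after the data were seen, has no replicate libraries and carries no test. It lies close under the lowest ratio of the 3 components, 2.07, so their passing it is no result. In the hindlimb the counting intervals of posterior over anterior reached below 2, to 1.72 for comp3957_c0, 1.71 for comp1181_c0 and 1.88 for comp1220_c0. The posterior end was not the peak in every case: the middle part exceeded the posterior part for comp3957_c0 and comp1220_c0 in both limbs, and for comp1181_c0 in the hindlimb at 1.57 times (1.36 to 1.82), whereas its forelimb ratio was 0.96 (0.88 to 1.04).

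Among themselves comp1181_c0 and comp1220_c0 were most alike, and comp3957_c0 was less like either. Over the 14 libraries the Pearson r of log2(score + 1) was 0.98 for comp1181_c0 with comp1220_c0, 0.77 for comp3957_c0 with comp1181_c0 and 0.79 for comp3957_c0 with comp1220_c0. Without digits II-V and digit I, which were chosen to differ, it was 0.99, 0.78 and 0.78 over 12 libraries. The libraries share their depth and their normalization across components, and these values are descriptions. Each of comp1181_c0 and comp1220_c0 was the component most like the other among the 20429, and the next were comp4858_c1 for comp1181_c0 (r = 0.90) and comp1987_c0 for comp1220_c0 (r = 0.88). The former scored only 6 to 24 and the latter 244 to 390 over the libraries, so neither showed changes of like size. Without digits II-V and digit I, comp4858_c1 dropped to place 60 in likeness to comp1181_c0 (r = 0.84) and comp1987_c0 to place 9 in likeness to comp1220_c0 (r = 0.88).

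Reads of comp1181_c0 made up 26.3% to 36.2% of the summed reads of comp1181_c0 and comp1220_c0 in 13 libraries. In digit I they made up 15.3% (9 of 59 reads, exact 95% interval 7.22% to 27%). Digit I is where comp1181_c0 was chosen for being low, so this share is partly set by the choice. The shares were close but not equal within counting error: the middle forelimb bud had 28.6% (27.2% to 30.1%) and digits II-V had 34.2% (32.0% to 36.5%).

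Component comp3957_c0 was matched most closely by comp14349_c0 (r = 0.97) and comp7027_c0 (r = 0.96), over the same 14 libraries. Component comp14349_c0 scored 170 in digits II-V and 187 in their interdigital tissue. Digit I had 19 and its neighbouring tissue 6, and hindlimb digits and interdigital tissue had 3 and 11. It held 100, 254 and 235 in the forelimb buds and 44, 123 and 115 in the hindlimb buds, and 84 in metacarpals against 6 in metatarsals. Its reads made up 27.2% to 39.4% of the summed reads of comp14349_c0 and comp3957_c0 in the 8 libraries where the sum was at least 100. In the other 6 libraries the share rested on 10 to 86 reads and ran from 11.8% to 40.9%.

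Component comp7027_c0 scored 184 in digits II-V and 415 in their interdigital tissue. Digit I had 11 and its neighbouring tissue 17, and hindlimb digits and interdigital tissue had 21 and 14. Its share of the summed reads with comp3957_c0 moved more, from 28.8% in digits II-V (24.2% to 33.7%) to 52.5% in the interdigital tissue of the wing (47.9% to 57.1%). The digits II-V score of comp3957_c0 was chosen for being high, so this move of the share is a description. Whether any of these components are pieces of 1 transcript was not tested.

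**Figure D5:**
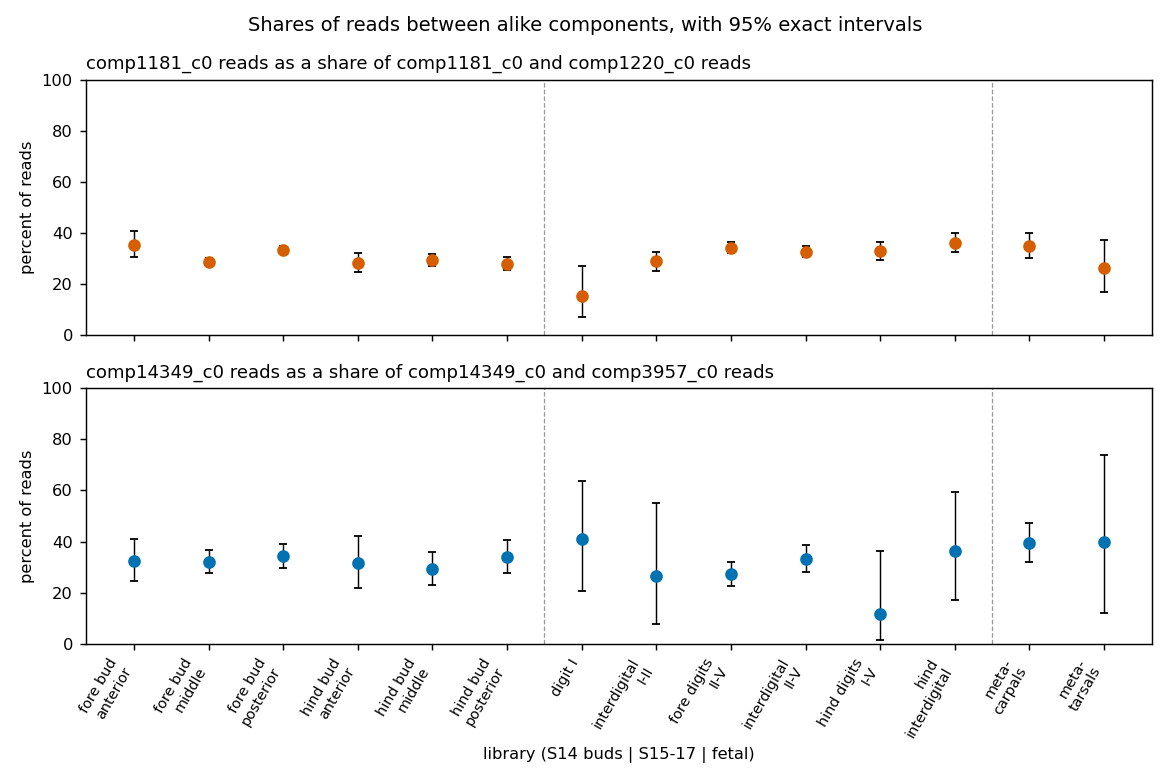
Reads of comp1181_c0 as a percent of the reads of comp1181_c0 and comp1220_c0 (above), and reads of comp14349_c0 as a percent of those of comp14349_c0 and comp3957_c0 (below), in the 14 libraries with exact 95% intervals. The upper shares run from 26.3% to 36.2% apart from digit I at 15.3%, and the lower shares have wide intervals in the thumb side, the foot and the metatarsals, where few reads were counted.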

How the data were processed

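Messenger RNA from 14 pieces of the autopod was sequenced, 1 library each. Libraries were TruSeq preparations of DNase-treated RNA, per the labels' protocols. CASAVA 1.8, edgeR and RSEM are listed, with no role, per the submitters' processing notes, with the assembler not given in the sources used here. The deposited values are scores, read counts normalized by the authors and rounded to whole numbers. In each library 99.995% to 100% of nonzero scores fell on rounded multiples of 1 step (within 0.01 beyond rounding), the score of 1 read, between 1.29 and 2.23. Dividing by it gave 4550754 to 7648427 reads per library. Intervals on single values and ratios are exact at 95% and cover counting error only.

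The 3 components and all comparisons were chosen with earlier results of these data known. limma 3.58.1 (R 4.3.3) was run with its trend option on log2(score + 1) over 20429 components whose mean score reached 10, two-sided, with Benjamini-Hochberg adjustment and calls at an adjusted p under 0.05. The 7 comparisons came from 3 fits: 5 matched limb pairs with part as block and separate limb effects at S14 and later; 5 hindlimb libraries by stage; and the 6 buds with the 2 forelimb interdigital libraries, in which a lone library was assumed to vary like the buds. Parts stand in for replicates. In the hindlimb fit and the fit with the buds and interdigital libraries, p-values measure the spread between parts. In the fit of matched pairs they measure the spread of the limb difference between pairs. That spread is taken from the S14 and later pairs together, so the 2 later pairs are assumed to vary like the S14 pairs. Either spread may include differences between embryos and libraries. The fits were tried on simulated data in which all libraries of a component shared the same mean, apart from set changes. Differences between parts were not simulated, so that trial does not cover them. Named besides the 3 are the components ranked next to them and the 2 most alike to each by Pearson r. Alternatives were a pseudocount of 5, no filter, median-centred libraries, limma voom on the recovered reads, no block, and leaving out each pair or library. Figures were drawn with matplotlib 3.10.9, and other steps used pandas 2.3.3, scipy 1.17.1 and numpy 2.4.6 under Python 3.11.15.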

Additional observations from a re-analysis of the deposited data

How the results depend on the processing

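Of 207 values of the 3 components under alternatives, 188 kept their direction and their side of the threshold, 10 lost a call, 4 gained one and 5 changed sign. Some of the 188 could not change in value. Leaving out a bud did not alter the difference between the interdigital tissues, nor leaving out a bud pair the later limb difference. Most of the 188 were uncalled values that stayed uncalled. All 10 losses were of comp3957_c0. Its calls were lost in 4 of 9 settings for the hindlimb change. For the later limb difference and the thumb-side tissue they were lost in 3 of 10 settings each. The 5 sign changes were in the comparison of wing interdigital tissue with the forelimb buds, none of them called: without the anterior forelimb bud (lowest value of the leave-outs -0.39 and highest 0.29 for comp3957_c0, -0.78 and 0.60 for comp1181_c0, -0.90 and 0.68 for comp1220_c0), with voom (-0.018) and with median-centred libraries (-0.035) for comp3957_c0.

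Counts of called components over the whole table moved more. With all libraries, limma called 7 components in the bud limb comparison, 12 in the later one, 3 for the change between them, 3928 for the hindlimb stage change, 2591 for wing and 2397 for thumb-side interdigital tissue against forelimb buds, and 11 between these tissues. A pseudocount of 5 gave 11 for the bud limb comparison and 2 between the interdigital tissues. No filter, with 64566 components tested, gave 1, 0 and 0 for the limb comparisons (3635, 4464 and 4632 at an unadjusted p under 0.05), 2281 for the hindlimb, 3818 for thumb-side tissue and 3063 between the tissues. It also turned the balance of higher and lower calls, from 1534 and 2394 to 1284 and 997 for the hindlimb, from 724 and 1867 to 2242 and 1196 for wing tissue, and from 768 and 1629 to 2663 and 1155 for thumb-side tissue. Median centring gave 3 between the tissues and turned the bud limb calls from 3 higher and 4 lower to 6 and 4; it moved the median of all components by up to 0.11, in the thumb-side comparison, where comp3957_c0 stayed called. Voom gave 14, 525 and 6 for the limb comparisons, 4109 for thumb-side tissue and 0 between the tissues (1206 unadjusted), with 1720 higher and 2017 lower for wing tissue and 2051 and 2058 for thumb-side tissue, and turned 7 higher and 5 lower for the later limb comparison to 168 and 357. Without the block the limb comparisons gave 3, 0 and 0 (471, 543 and 657 unadjusted). Leaving out 1 pair or library gave 0 to 7, 0 to 125 and 0 to 2 for the limb comparisons, 1311 to 2091 for the hindlimb, 224 to 3834 for wing and 384 to 3596 for thumb-side tissue, and 0 to 27 between the tissues. The later limb count was 0 without the metapodial pair and 125 without the interdigital pair; the hindlimb and wing counts were lowest without the anterior hindlimb bud, and the thumb-side count and that between the tissues without the posterior forelimb bud. The cause was not tested. At this depth digit I, interdigital tissue I-II, foot and metatarsal scores of comp3957_c0 rest on 6 to 15 reads. Those next to each other in level were not parted by counting error, so their full order is not settled.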
